A study of Homo sapiens with 6 samples.

Results

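The Krüppel-like factors (KLF) were described here by 10 genes: KLF2, KLF3, KLF4, KLF5, KLF6, KLF9, KLF10, KLF11, KLF13 and KLF16. Members were taken by symbol: every probe set of the array that names one of these genes and no other was used, which gave 29 probe sets of the 54613 that are not array controls. The arrays came from DLD1, an established human colorectal adenocarcinoma line known to carry truncated APC, in which beta-catenin is active without a Wnt ligand. There were 3 arrays of cells exposed for 12 h to SAH-BCL9B at 10 µM and 3 of cells given vehicle, DMSO, for the same 12 h, from what the labels call triplicate cultures. SAH-BCL9B is a hydrocarbon-stapled helical peptide modelled on the segment of BCL9 that binds beta-catenin. All arrays are of this 1 line, and the series has 1 dose, 1 time and no control peptide. Values are log2 expression levels, and every n below is 3 arrays per group.

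KLF proteins are transcription factors that bind GC-rich and CACCC sequences through a conserved zinc finger domain at the carboxyl terminus, while their amino-terminal parts differ and recruit different partners. KLF3 recruits the corepressor CtBP, KLF2, KLF4, KLF5 and KLF6 act largely with acetyltransferases, and KLF9, KLF10, KLF11, KLF13 and KLF16 recruit the corepressor SIN3A. In the intestine KLF5 is known from dividing crypt cells, where it favours proliferation, and KLF4 from the differentiated cells above them, where it favours arrest. KLF6 and KLF10 are known as genes induced early by growth factors, stress or TGF-beta.

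The stretches of DNA before the start sites of KLF6, which rose, KLF11, which fell, and KLF5, against which the others are set, are shown. These genes were picked with their results known. Of the 10 members, 8 had a start site used here, in 10 windows of 250 bases taken from RefSeq (GRCh38.p14). No window was used for KLF3, which fell, or for KLF10. Capitals mark the motifs searched on both strands: the GC box GGGCGG, the CACCC box CACCC, the TCF site, which begins with CTTTG and goes on with A or T at both of the next bases, the cAMP response element TGACGTCA and the E-box CACGTG. The GC box and the CACCC box share letters and can overlap, as can the cAMP response element and the CACCC box.
KLF6, chr10:3785210-3785459, minus strand: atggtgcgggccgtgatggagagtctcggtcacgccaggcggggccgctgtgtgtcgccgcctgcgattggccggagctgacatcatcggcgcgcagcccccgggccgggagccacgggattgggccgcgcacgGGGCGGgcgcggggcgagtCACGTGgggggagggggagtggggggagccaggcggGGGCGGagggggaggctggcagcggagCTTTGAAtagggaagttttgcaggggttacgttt
KLF11, chr2:10043579-10043828, plus strand: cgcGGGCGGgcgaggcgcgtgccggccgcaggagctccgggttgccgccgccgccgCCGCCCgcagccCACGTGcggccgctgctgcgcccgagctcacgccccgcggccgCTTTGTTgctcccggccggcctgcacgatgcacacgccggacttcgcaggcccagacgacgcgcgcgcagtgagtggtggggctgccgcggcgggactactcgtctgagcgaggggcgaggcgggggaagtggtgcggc
KLF11, around the cAMP response element, chr2:10044034-10044063, plus strand: atttccagccaTGACGTCAccccggtcctg
KLF5, upstream start, chr13:73054726-73054975, plus strand: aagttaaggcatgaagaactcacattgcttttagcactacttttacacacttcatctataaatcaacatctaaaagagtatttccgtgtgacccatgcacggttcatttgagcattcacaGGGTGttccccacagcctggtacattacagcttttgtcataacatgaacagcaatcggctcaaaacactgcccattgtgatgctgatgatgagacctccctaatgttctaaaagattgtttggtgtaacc
KLF5, downstream start, chr13:73058755-73059004, plus strand: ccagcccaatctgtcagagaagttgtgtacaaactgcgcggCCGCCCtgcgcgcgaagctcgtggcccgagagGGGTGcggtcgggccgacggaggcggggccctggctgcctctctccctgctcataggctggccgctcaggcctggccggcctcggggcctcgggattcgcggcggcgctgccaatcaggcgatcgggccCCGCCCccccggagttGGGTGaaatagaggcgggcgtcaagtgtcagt

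The KLF6 window held 2 GC boxes, 1 E-box and 1 TCF site, the last at 34 to 28 bases before the start site. The first KLF11 window held the same kinds, with 2 GC boxes, 1 E-box and 1 TCF site at 139 to 133 bases before the start, and its other window held 6 GC boxes, 1 CACCC box and the cAMP response element. In the short stretch only that element is in capitals. The window of the upstream KLF5 start held 1 CACCC box and had 40.8% G and C, whereas that of the downstream start held 2 GC boxes and 2 CACCC boxes and had 70.8% G and C. Neither KLF5 window held a TCF site. The windows of KLF2, KLF4, KLF9, KLF13 and KLF16, which are not shown, held none either. They held 4, 4, 0, 3 and 7 GC boxes, in that order. Of 35116 promoter windows of the same length, 42.6% held the GC box, 54.7% the CACCC box, 12.0% a TCF site, 6.34% the E-box and 1.65% the cAMP response element. A match describes the letters and is not evidence of binding.

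The array SAH-BCL9B 2 stood apart from the other arrays. Its correlation with the other SAH-BCL9B arrays was 0.989 and 0.991 over all probe sets, against 0.997 between those 2 arrays and 0.995 to 0.996 among the vehicle arrays. Its ACTB control probe sets differed by 0.74 on the log2 scale between the 3' and 5' ends, against 1.20 and 1.33 on SAH-BCL9B 1 and 3 and 1.21 to 1.38 on the vehicle arrays. In 20 of the 29 KLF probe sets its value lay below the mean of the other SAH-BCL9B arrays, which held for 42.0% of all probe sets. The part of this array in each result was not tested beyond leaving it out, and results are given with and without it. Among markers of colonic epithelium 11 of 12 lay above the array median (6.58 to 6.62) on all 6 arrays, and of the 12, KRT8 rose by 0.50 and VIL1 changed by -0.86. Of the fibroblast markers 3 of 6 lay below the median on all 6 arrays (COL1A2, COL3A1 and LUM), DCN lay above it on 1, and COL1A1 and PDGFRB lay above it on all, COL1A1 by 1 probe set while its 4 others averaged 3.98 to 5.95. Of the leukocyte markers 4 of 6 were measured, of which PTPRC and CD2 lay below the median on all arrays, CD3E above it on 2 and CD14 above it on 1. Of the 5 endothelial markers 4 lay below it on all arrays and PECAM1 above it on all. None of the fibroblast, leukocyte or endothelial markers passed the threshold. The part of the markers of all 4 kinds in the results was not tested.

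After 12 h with SAH-BCL9B, 1 KLF probe set rose, 2 fell and 26 did not pass an adjusted p of 0.05. The 3 belonged to KLF6, which rose, and to KLF11 and KLF3, which fell, and for 7 of the 10 genes no probe set passed. Of all 54613 probe sets, 2.5% passed in either direction, 1.12% upward and 1.37% downward. At an unadjusted p under 0.05 there were 7 of the 29 KLF probe sets, against 15.4% of all. The 3 SAH-BCL9B arrays lay beyond the 3 vehicle arrays in 8 of the 29 KLF probe sets, 4 upward and 4 downward, against 22% of all probe sets, 12.3% upward and 9.73% downward. The median log2 change was -0.06 over the KLF probe sets and 0.01 over all, and the KLF changes ran from -0.67 to 0.48. The probe sets of 1 gene are not replicates, and in 7 of the 9 genes that had more than 1 they all pointed the same way.

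**Figure D1:**
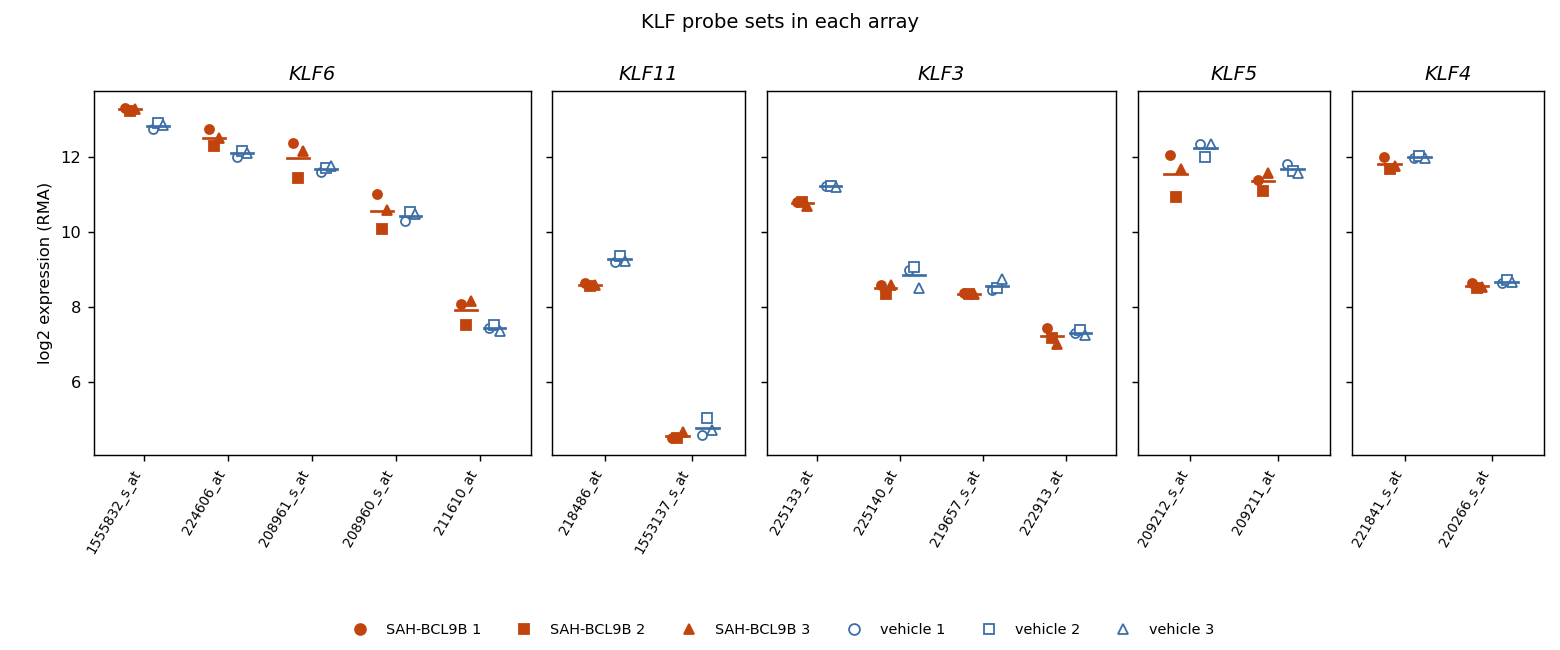
Log2 expression of the probe sets of KLF6, KLF11, KLF3, KLF5 and KLF4 (horizontal axis) in each array, SAH-BCL9B left (filled) and vehicle right (open), with a bar at each group mean. The 3 SAH-BCL9B arrays lie above the vehicle arrays for KLF6 1555832_s_at and below them for KLF11 218486_at and KLF3 225133_at, and SAH-BCL9B 2 is the lowest SAH-BCL9B array in all 5 KLF6 probe sets, 3 of which overlap.

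KLF6, a widely expressed factor of injury and stress responses and a candidate tumour suppressor in the colon, was the member that rose. Its brightest probe set, 1555832_s_at, read 13.30, 13.21 and 13.27 in SAH-BCL9B 1, 2 and 3, against 12.73, 12.88 and 12.84 in vehicle 1, 2 and 3. The groups did not overlap, and the change was 0.44 ± 0.08 (SE), 1.36-fold, with an adjusted p of 0.0435 in limma. Probe set 224606_at read 12.74, 12.27 and 12.49 in SAH-BCL9B, against 12.00, 12.16 and 12.09 in vehicle, again without overlap, but its change of 0.42 ± 0.13 did not pass (adjusted p = 0.161).

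The other KLF6 probe sets were divided by the array SAH-BCL9B 2. Probe set 208961_s_at read 12.35, 11.42 and 12.14 in SAH-BCL9B, against 11.59, 11.70 and 11.74 in vehicle. Probe set 208960_s_at read 11.00, 10.08 and 10.58 in SAH-BCL9B, against 10.28, 10.54 and 10.49 in vehicle. Probe set 211610_at read 8.09, 7.53 and 8.15 in SAH-BCL9B, against 7.45, 7.54 and 7.35 in vehicle. In all 3, SAH-BCL9B 1 and 3 lay above every vehicle array and SAH-BCL9B 2 lay among them or below. Their changes were 0.29 ± 0.22, 0.12 ± 0.21 and 0.48 ± 0.17, and none passed (adjusted p = 0.64, 0.88 and 0.217). Without SAH-BCL9B 2 the changes of the 5 KLF6 probe sets ran from 0.36 to 0.67 and 3 of the 5 passed, namely 1555832_s_at (adjusted p = 0.0483), 208961_s_at (0.0412) and 211610_at (0.0206). Without any 1 of the other 5 arrays, 1555832_s_at missed the threshold (highest adjusted p = 0.202), with changes of 0.40 to 0.48. Averaging the 5 KLF6 probe sets on each array gave 0.35 ± 0.14, which did not pass (adjusted p = 0.231 over 19775 genes).

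KLF5, the crypt factor tied to proliferation, had negative changes in both probe sets and did not pass. Probe set 209212_s_at read 12.03, 10.93 and 11.67 in SAH-BCL9B, against 12.32, 11.98 and 12.34 in vehicle. SAH-BCL9B 2 was the lowest of the 6 arrays, and the groups overlapped because SAH-BCL9B 1 exceeded vehicle 2. The change was -0.67 ± 0.26 with a 95% interval of -1.28 to -0.06 (limma adjusted p = 0.269). Probe set 209211_at read 11.39, 11.09 and 11.55 in SAH-BCL9B, against 11.79, 11.61 and 11.57 in vehicle, without overlap, though SAH-BCL9B 3 lay next to vehicle 3. Its change was -0.32 ± 0.13 (adjusted p = 0.313). Without SAH-BCL9B 2 the changes were -0.36 ± 0.15 and -0.19 ± 0.11 (adjusted p = 0.266 and 0.415).

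KLF4, known for arrest and differentiation in the upper crypt and goblet cells, did not pass in either of its 2 probe sets. Probe set 221841_s_at read 11.98, 11.67 and 11.75 in SAH-BCL9B, against 11.97, 12.01 and 11.97 in vehicle. SAH-BCL9B 1 stood at the vehicle level and the other SAH-BCL9B arrays below it, and the change was -0.19 ± 0.10 with a 95% interval of -0.42 to 0.05 (limma adjusted p = 0.464). Probe set 220266_s_at read 8.64, 8.50 and 8.54 in SAH-BCL9B, against 8.63, 8.71 and 8.66 in vehicle, a change of -0.11 ± 0.08 (interval -0.30 to 0.08, adjusted p = 0.638). Without SAH-BCL9B 2 the changes of the KLF4 probe sets were -0.12 ± 0.10 and -0.08 ± 0.09. KLF2, a factor of quiescence in lymphocytes and endothelium, read 11.21, 11.06 and 11.09 in SAH-BCL9B, against 11.12, 11.05 and 11.04 in vehicle, in its brighter probe set 219371_s_at. Its 2 probe sets gave 0.05 ± 0.08 and 0.09 ± 0.08, with 95% intervals of -0.15 to 0.24 and -0.10 to 0.27.

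KLF3, the CtBP-dependent repressor, fell in 1 of its 4 probe sets and had negative changes in all 4. Probe set 225133_at read 10.80, 10.79 and 10.68 in SAH-BCL9B, against 11.21, 11.23 and 11.18 in vehicle. The groups lay apart by more than the range within either, and the change was -0.45 ± 0.08, 1.36-fold lower, with an adjusted p of 0.0374 in limma. Probe set 225140_at read 8.59, 8.35 and 8.57 in SAH-BCL9B, against 8.99, 9.08 and 8.50 in vehicle, where vehicle 3 lay among the SAH-BCL9B arrays. Probe set 219657_s_at read 8.37, 8.36 and 8.35 in SAH-BCL9B, against 8.45, 8.50 and 8.75 in vehicle, without overlap. With 222913_at these probe sets had changes of -0.35 to -0.10 and did not pass (adjusted p = 0.359 to 0.799). Without SAH-BCL9B 2 the change of 225133_at was -0.46 ± 0.09 (adjusted p = 0.0462), and without any 1 of the other 5 arrays it missed the threshold (highest adjusted p = 0.174). Averaging the 4 KLF3 probe sets on each array gave -0.28 ± 0.08 and did not pass (adjusted p = 0.0878 over 19775 genes).

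Of the SIN3A-recruiting members, KLF11 fell. KLF11, a TGF-beta-inducible repressor close to KLF10, read 8.64, 8.55 and 8.59 in SAH-BCL9B, against 9.21, 9.36 and 9.22 in vehicle, in probe set 218486_at. All SAH-BCL9B arrays lay below all vehicle arrays, and SAH-BCL9B 2 lay close to SAH-BCL9B 1 and 3. The change was -0.67 ± 0.09, 1.59-fold lower, with an adjusted p of 0.0143 in limma, and it was -0.65 ± 0.10 without SAH-BCL9B 2 (adjusted p = 0.0225). Without any 1 of the other 5 arrays it missed the threshold (highest adjusted p = 0.0834), with changes of -0.70 to -0.62. The second KLF11 probe set, 1553137_s_at, lay below the median of every array, with 4.51, 4.51 and 4.68 in SAH-BCL9B, against 4.60, 5.05 and 4.72 in vehicle. It did not pass (-0.22 ± 0.13, adjusted p = 0.494), while the mean of both gave -0.45 ± 0.09 and did (adjusted p = 0.0344 over 19775 genes).

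KLF10, like KLF11 a TGF-beta-inducible early gene and known to repress SMAD7, had 1 probe set, which read 12.33, 11.97 and 12.39 in SAH-BCL9B, against 12.10, 11.92 and 11.97 in vehicle. SAH-BCL9B 1 and 3 lay above all vehicle arrays and SAH-BCL9B 2 among them, and the change was 0.23 ± 0.13 with a 95% interval of -0.06 to 0.53 (limma adjusted p = 0.464). Without SAH-BCL9B 2 it was 0.36 ± 0.10 (adjusted p = 0.0996). KLF10 and KLF11 therefore had changes of opposite sign in their brightest probe sets, and that difference was not tested.

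KLF9, KLF13 and KLF16 showed no call in 11 probe sets. KLF9, a factor induced by glucocorticoid and thyroid hormone, read 9.68, 9.32 and 9.67 in SAH-BCL9B, against 9.60, 9.60 and 9.38 in vehicle, in probe set 203543_s_at. Its 5 probe sets had changes of -0.13 to 0.20, none of which passed (adjusted p = 0.369 to 0.966). KLF13, a factor known for activating CCL5 in T lymphocytes, read 10.40, 10.59 and 10.37 in SAH-BCL9B, against 10.33, 10.39 and 10.33 in vehicle, in 225390_s_at, a change of 0.10 ± 0.09.

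In KLF13 219878_s_at the array SAH-BCL9B 2 set the value: it read 8.12, 6.47 and 7.98 in SAH-BCL9B, against 7.95, 7.64 and 7.87 in vehicle. The change was -0.30 ± 0.40, and 0.23 ± 0.12 without that array. The other KLF13 probe sets had -0.08 ± 0.11 and -0.06 ± 0.13. KLF16, a repressor that binds GC-rich DNA, read 7.78, 8.19 and 7.79 in SAH-BCL9B, against 7.74, 7.69 and 7.68 in vehicle, in 226328_at, where SAH-BCL9B 2 was the highest array. The groups did not overlap, and the change of 0.22 ± 0.12 did not pass (adjusted p = 0.485) and was 0.08 ± 0.09 without SAH-BCL9B 2. In the other KLF16 probe set, 224111_x_at, the groups overlapped. Its change was 0.08 ± 0.11 (adjusted p = 0.827), and -0.0026 ± 0.10 without SAH-BCL9B 2. Of all 29 KLF probe sets, 23 lay above the median of every array and 5 below it, namely 2 each of KLF9 and KLF13 and 1 of KLF11.

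**Figure D2:**
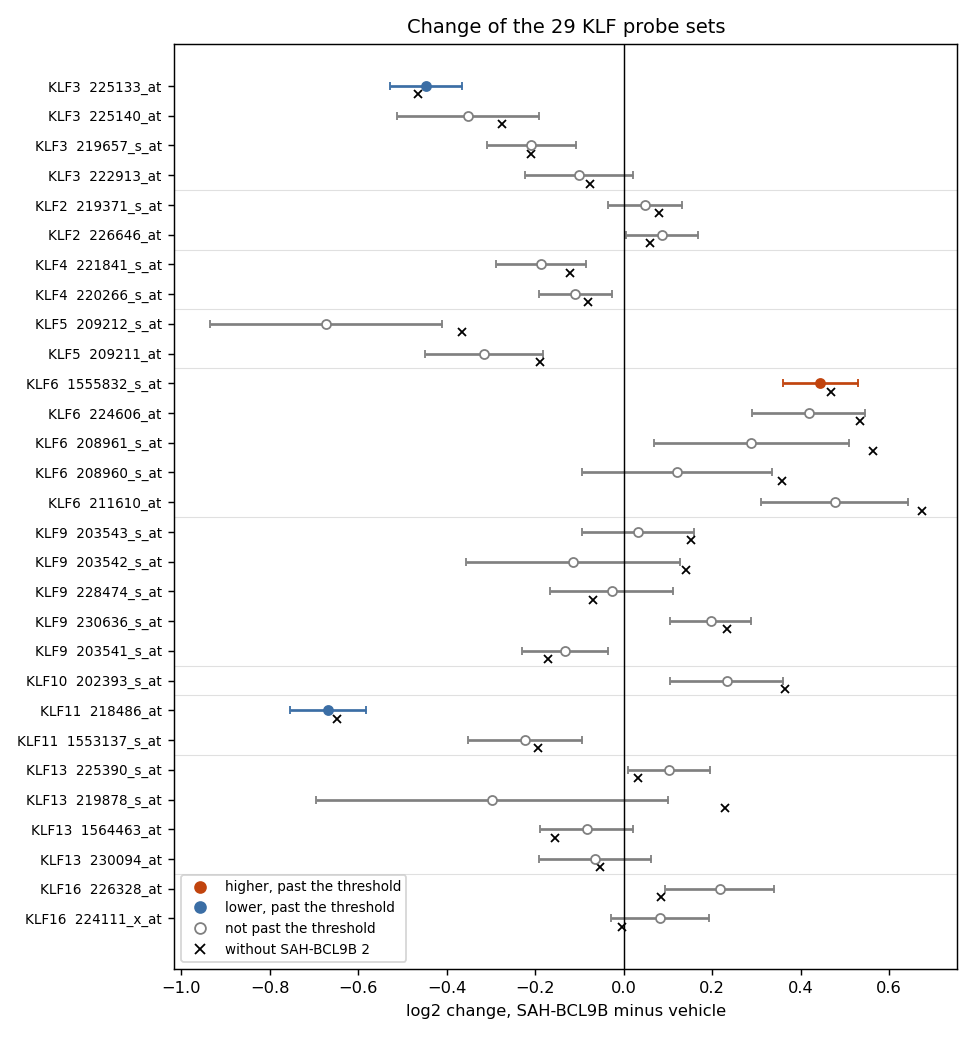
Log2 change, SAH-BCL9B minus vehicle, of the 29 KLF probe sets (vertical axis), with limma's moderated SE as bars and the change without SAH-BCL9B 2 as a cross. Filled points passed the threshold: 1 of KLF6 to the right and 1 each of KLF3 and KLF11 to the left, and the crosses of KLF13 219878_s_at, KLF9 203542_s_at and KLF16 224111_x_at lie on the other side of 0 from their points.

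KLF5 was set against each other member within the arrays, since it favours proliferation while relatives such as KLF4 and KLF6 are linked to differentiation or stress. For each array the mean over a gene's probe sets was taken, KLF5 minus the other gene was formed, and the groups were compared in an exact two-sided permutation test, in which 3 arrays against 3 cannot go below 0.1. Averaged over its probe sets KLF5 read 11.71, 11.01 and 11.61 in SAH-BCL9B, against 12.06, 11.80 and 11.96 in vehicle. KLF6 read 11.49, 10.90 and 11.33 in SAH-BCL9B, against 10.81, 10.96 and 10.90 in vehicle. Both genes were lowest in SAH-BCL9B 2 among the SAH-BCL9B arrays, and the SD of their difference was 0.0899 in SAH-BCL9B and 0.206 in vehicle.

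The difference between the changes of KLF5 and KLF6 was -0.84 (exact p = 0.1), and the groups did not overlap. Relative to KLF10 the difference was -0.73, and relative to KLF16, KLF2, KLF9 and KLF13 it ran from -0.64 to -0.41, again without overlap and at the smallest p the design allows. The 9 differences share KLF5, whose own averaged values did not overlap between the groups, and KLF5 minus any other gene gave no overlap in this direction for 60.7% of 19774 genes, so the count of 6 of 9 is not a result about these members. Relative to KLF4 it was -0.35 (exact p = 0.2), to KLF3 -0.22 (0.5) and to KLF11 -0.05 (0.7), with overlap in all 3. None of the 9 differences could reach 0.05. Without SAH-BCL9B 2 the difference was -0.80 for KLF6 and -0.64 for KLF10, but -0.32 for KLF16, -0.35 for KLF2, -0.33 for KLF9, -0.29 for KLF13, -0.18 for KLF4, -0.02 for KLF3 and 0.14 for KLF11.

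**Figure D3:**
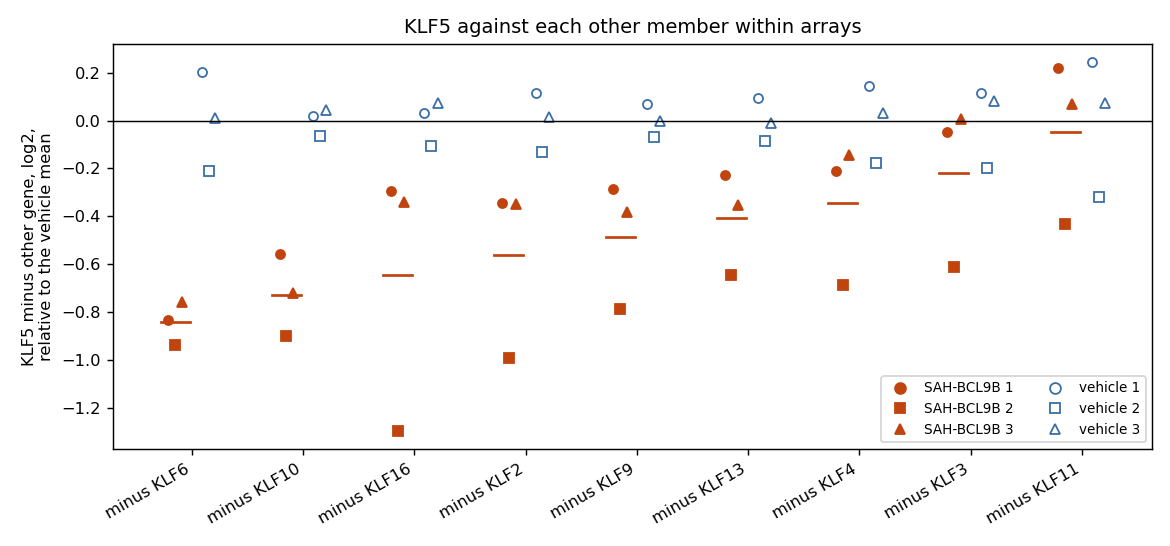
Difference between KLF5 and each other member within each array, on the log2 scale relative to the vehicle mean of that difference, SAH-BCL9B left (filled, bar at the mean) and vehicle right (open). The SAH-BCL9B arrays lie below all vehicle arrays for KLF6, KLF10, KLF16, KLF2, KLF9 and KLF13, and overlap them for KLF4, KLF3 and KLF11.

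The remaining KLF genes and the related SP factors, which share the zinc finger domain, held no call in this fit, though 1 probe set of the other KLF genes was lower with the array SD as a covariate. Of 8 other KLF genes 7 were measured by 21 probe sets, with a median change of 0.01 and none past the threshold, and none had an unadjusted p under 0.05 in limma. The largest changes in a brightest probe set were those of KLF7, a factor of neuronal development, with -0.41 ± 0.19 in 204334_at (adjusted p = 0.371), and the erythroid factor KLF1, with 0.18 ± 0.09 (adjusted p = 0.438). KLF7 204334_at read 9.27, 8.48 and 9.07 in SAH-BCL9B, against 9.27, 9.36 and 9.41 in vehicle, with SAH-BCL9B 2 the lowest. Leaving out each array in turn gave it changes of -0.57 to -0.18. Of 9 SP genes 8 were measured by 19 probe sets, with a median of -0.05, none past the threshold and 3 at an unadjusted p under 0.05, near the 15.4% of all probe sets. SP1, the ubiquitous GC box factor, read 10.40, 10.54 and 10.38 in SAH-BCL9B, against 10.63, 10.84 and 10.71 in vehicle, without overlap, and its change of -0.29 ± 0.09 did not pass (adjusted p = 0.186). SP8 had 0.31 ± 0.23 (0.632).

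Genes that act on KLF proteins or on their transcription held no call in this fit. With a variance trend and robust fitting 3 cofactor probe sets were lower and 2 of regulators higher. In the regulators 1 was higher with the filter on low values, with array weights and with the array SD as a covariate. Those settings passed more probe sets in all, with 2923, 2725, 2738 and 2983 in that order, against 1363 in the fit used here. Of 36 probe sets of 14 KLF cofactor genes none passed, with a median of -0.005 and 5 at an unadjusted p under 0.05. The brightest probe set of CTBP2, one of the CtBP corepressors, had -0.32 ± 0.09 (limma adjusted p = 0.138), and that of the deacetylase gene HDAC2 -0.25 ± 0.13 (0.437). Of 34 probe sets of 9 genes of KLF protein turnover none passed (median 0.11, 5 at an unadjusted p under 0.05), with BTRC, a ubiquitin ligase subunit, at 0.33 ± 0.11 (adjusted p = 0.208) and ITCH, a ubiquitin ligase, at 0.22 ± 0.13 (0.483). Of 67 probe sets of 18 regulators of KLF transcription none passed (median 0.03, 9 at an unadjusted p under 0.05), with MEF2C, which activates KLF2 in endothelium, at 0.38 ± 0.11 (adjusted p = 0.141) and the Notch target HES1 at -0.30 ± 0.11 (0.255). Over all probe sets the median was 0.01, and 15.4% had an unadjusted p under 0.05, so that the counts of 5, 5 and 9 lay near or below that share.

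Among genes described as targets of KLF factors the calls are to be read against the 2.5% of all probe sets that passed and the 15.4% with an unadjusted p under 0.05. The lists do not separate targets that a factor activates from those it represses. A median or direction in them therefore does not show the activity of a factor. Of 43 probe sets of 14 genes described as KLF5 targets 1 fell and none rose (median -0.06, 10 at an unadjusted p under 0.05): the mitotic cyclin gene CCNB1 in 228729_at, which read 10.46, 10.44 and 10.56 in SAH-BCL9B, against 11.14, 11.15 and 10.93 in vehicle. Its change was -0.59 ± 0.10 (limma adjusted p = 0.0284), while its brighter probe set 214710_s_at had -0.10 ± 0.09 (0.736). Of 34 probe sets of 17 genes described as KLF4 or KLF6 targets 1 rose and none fell (median 0.07, 8 at an unadjusted p under 0.05): IGFBP3, which encodes a binding protein of insulin-like growth factors, read 7.40, 7.60 and 7.53 in SAH-BCL9B, against 6.89, 7.00 and 7.07 in vehicle, in 210095_s_at. Its change was 0.52 ± 0.09 (adjusted p = 0.0369), and its other probe set had 0.46 ± 0.13 (0.124).

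Of 12 probe sets of 7 genes described as KLF2 targets none passed (median -0.06, 3 at an unadjusted p under 0.05). Those 3 were all of 1 gene, TXNIP, an inhibitor of thioredoxin. It had -0.40 ± 0.10 in its brightest, 201010_s_at (limma adjusted p = 0.0915), and -0.59 ± 0.15 and -0.68 ± 0.23 in the others (0.0898 and 0.21). The endothelial nitric oxide synthase gene NOS3 had -0.10 ± 0.12 (0.793). Of 21 probe sets of 11 genes described as targets of KLF9, KLF10 or KLF11, 1 rose and 1 fell (median 0.02, 8 at an unadjusted p under 0.05). TGFB1, which encodes the ligand that induces KLF10 and KLF11, read 8.38, 8.50 and 8.18 in SAH-BCL9B, against 7.44, 7.76 and 7.33 in vehicle, in 203085_s_at. Its change was 0.84 ± 0.14 (adjusted p = 0.0278), but its other probe set, 203084_at, had the opposite sign with -0.12 ± 0.10 (0.701). The clock gene BMAL1 read 8.59, 8.67 and 8.48 in SAH-BCL9B, against 9.20, 9.08 and 9.07 in vehicle, in 209824_s_at, a change of -0.54 ± 0.09 (adjusted p = 0.0306). Its other probe set, 210971_s_at, had -0.58 ± 0.14 and did not pass (0.0819). The calls of CCNB1, TGFB1 and BMAL1 were kept without SAH-BCL9B 2 and lost without any 1 of the other 5 arrays (highest adjusted p = 0.146, 0.136 and 0.158), and that of IGFBP3 was lost without any 1 of the 6 (0.0547 to 0.176).

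**Figure D4:**
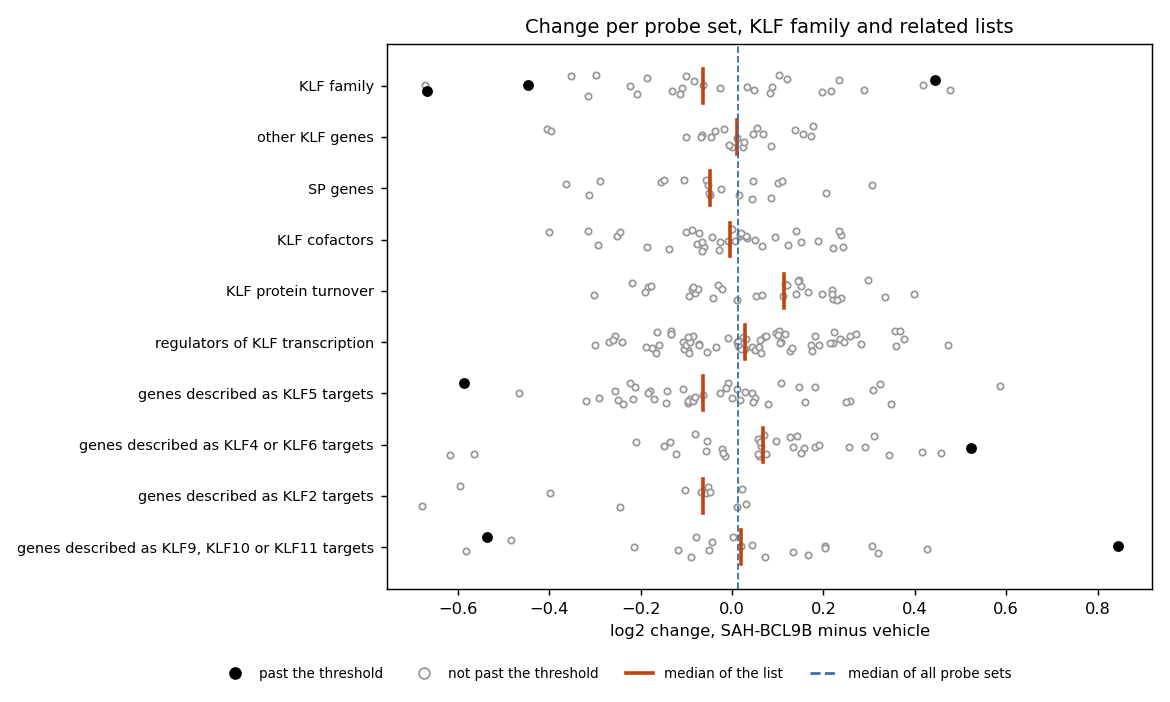
Log2 change, SAH-BCL9B minus vehicle, of every probe set (points) of the 10 KLF members and of 9 related gene lists (vertical axis), with each list's median (bar) and that of all probe sets, 0.01 (dashed line). Filled points passed the threshold: 3 KLF probe sets and 1 each of CCNB1, IGFBP3, TGFB1 and BMAL1.

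The genes most like KLF5 and KLF11 over the 6 arrays were found by Pearson correlation between the brightest probe sets, among 19060 genes. For KLF5 they were the mitochondrial carrier gene SLC25A36 (r = 0.997), the claudin gene CLDN2 (0.995) and CXXC5 (0.989), with changes of -0.58, -0.59 and -0.32. For KLF11 they were the epithelial splicing regulator gene ESRP1 (r = 0.999), FAM171A1 (0.998) and RUBCNL (0.997), with changes of -0.79, -0.60 and -0.82. These correlations are the highest of many over 6 arrays that share the same 2 groups, and they describe the arrays alone.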

How the data were processed

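Expression was measured in DLD1 cells on Affymetrix Human Genome U133 Plus 2.0 arrays, 3 with SAH-BCL9B and 3 with vehicle, grouped by title. The authors deposited log2 values for 54675 probe sets, and RMA and affy are named in the submitters' processing notes, with versions and options not given in the sources used here. That the scale is log2 was taken from the values' range together with the naming of RMA. RMA makes arrays alike in distribution and shrinks changes of dim probe sets, so a shift of most genes would not be seen. Detection calls and scanner files were not used here, and how far each signal lies over background is not known. Nothing states that the triplicates came from separate passages, so p-values measure only the spread between these arrays, whose number limits the precision.

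After 62 controls were left out, all 54613 probe sets were fitted with limma 3.58.1 in R 4.3.3 (lmFit, eBayes, prior degrees of freedom 3.60), SAH-BCL9B minus vehicle without covariates, with Benjamini-Hochberg adjustment over all of them and a threshold of 0.05. No filter on low values was set. Symbols came from GEO's platform annotation, and the Entrez IDs of all 29 KLF probe sets matched RefSeq (GRCh38.p14). Probe sets ending in _s_at or _x_at may match several transcripts. Errors are limma's moderated SEs, and levels of different probe sets were not set against each other. Figures were made in Python 3.11.15 (matplotlib 3.10.9). The fit was tested on simulated data, where it missed many of the changes put in. A probe set short of the threshold may therefore have changed.

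The members and lists were chosen with earlier results of these data known. The lists were compiled from general knowledge, and of each list the genes past the threshold were named or, where none passed, up to 2 genes with the largest change in the brightest probe set. For KLF5 and the member with the largest change past the threshold, the 3 genes with the highest correlation were named. Alternatives were a filter on low values, 2 covariates, 2 further normalizations, arrays weighted or left out, other uses of several probe sets, robust fitting with a variance trend, and blocking on the replicate number.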

Additional observations from a re-analysis of the deposited data

How the results depend on the processing

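The count of KLF probe sets past the threshold, 1 higher and 2 lower, was the same with a filter on low values, median centring, a second quantile normalization and a variance trend with robust fitting. It was 3 higher with array weights and 2 higher with the array SD as a covariate. It was 0 higher without probe sets ending in _x_at or _s_at (which leaves out the KLF6 probe set that rose) and 1 lower without vehicle 3 and SAH-BCL9B 2. When a gene's probe sets were averaged it was 0 higher and 1 lower, and 4.94% of 19775 genes passed. With only the brightest probe set of each gene KLF6 was higher and KLF3 and KLF11 were lower, and 6.93% of 19775 genes passed. With the ACTB covariate, and without vehicle 3 and SAH-BCL9B 2, the 1 that rose was KLF6 211610_at in place of 1555832_s_at (adjusted p = 0.0211 and 0.0404). Leaving out each array in turn gave 0 to 3 higher and 0 to 2 lower, and 97 to 1478 of all probe sets: 1478 without SAH-BCL9B 2, 97, 141 and 357 without vehicle 1, 2 and 3, and 214 and 114 without SAH-BCL9B 1 and 3. Over all probe sets 2725 passed with the filter, 761 without _x_at and _s_at, 2923 with the trend, 2738 with array weights, 2983 with the array SD and 836 without vehicle 3 and SAH-BCL9B 2. With the replicate number as a block 0 KLF probe sets were higher, 0 lower, and 171 of all passed (adjusted p = 0.146 for KLF6 1555832_s_at, 0.0814 for KLF11 and 0.128 for KLF3), and the calls of CCNB1, IGFBP3 and BMAL1 were lost. Whether the numbers pair the arrays is not known. The correlations of same-numbered deviations were 0.41, 0.06 and -0.31, and those of the other pairs ran from -0.48 to 0.38. They cannot decide it, because deviations of 3 arrays from their own mean constrain each other.

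With the brightest probe set of each gene the KLF5 difference was -1.12 against KLF6, -0.71 against KLF9, -0.91 against KLF10 and -0.78 against KLF13. Leaving out each array gave -0.95 to -0.74 against KLF6, -0.81 to -0.64 against KLF10, -0.82 to -0.32 against KLF16, -0.67 to -0.35 against KLF2, -0.59 to -0.33 against KLF9, -0.50 to -0.29 against KLF13, -0.45 to -0.18 against KLF4, -0.33 to -0.02 against KLF3 and -0.21 to 0.14 against KLF11. Probe sets that changed sign were all short of the threshold, and the cause was not tested: KLF13 219878_s_at (0.029 with array weights, 0.25 with the ACTB covariate and 0.25 without vehicle 3 and SAH-BCL9B 2), KLF16 224111_x_at (-0.0067 with array weights and -0.043 without those 2 arrays), KLF9 203542_s_at (0.17 with the ACTB covariate and 0.12 without those 2 arrays), and, without those 2 arrays, KLF9 228474_s_at (0.068) and KLF13 230094_at (0.055). Leaving out each array gave -0.60 to 0.23 for KLF13 219878_s_at, -0.16 to 0.044 for KLF13 230094_at, -0.10 to 0.36 for KLF6 208960_s_at, -0.0026 to 0.15 for KLF16 224111_x_at, and, for KLF9, -0.30 to 0.14 in 203542_s_at, -0.041 to 0.15 in 203543_s_at and -0.13 to 0.11 in 228474_s_at. Signal over background is unknown for all probe sets. Over all settings, arrays left out included, the KLF5 target list held 0 to 3 lower and 0 to 1 higher calls, the KLF4 or KLF6 list 0 to 3 higher and 0 to 1 lower, the KLF2 list 0 to 2 lower, and the KLF9, KLF10 or KLF11 list 0 to 2 in each direction. Over the same settings the number of probe sets past the threshold in all ran from 97 to 2983, so these counts are not a result about the lists.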
